A study of Mus musculus with 2 samples.

Results

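Complement genes and their membrane-bound Csmd inhibitors were followed across cell classes of the mouse hippocampus. The set holds 9 genes of the 32285 in the matrices, chosen by symbol: the C1q chains C1qa, C1qb and C1qc, the later components C3 and C4b, the receptor subunit Itgam, and the inhibitors Csmd1, Csmd2 and Csmd3. All 9 were found. Nuclei were taken from the hippocampi of 6-week-old C57BL/6J mice that had received adeno-associated virus (AAV) bilaterally into the intracerebroventricular spaces at postnatal day 0. In AAV-TAU mice the virus carried full-length 2N4R wild-type human tau, and in AAV-STOP mice it carried the MAPT transcript of human tau with a stop codon placed early, from which no tau protein is made. Hippocampi of 3 mice were pooled in each group and sequenced as 1 single-nucleus RNA library, so there is no spread between mice and no test. Every interval given here is an exact 95% interval of counting error only. The promoter of the vectors is not given in the sources used here, and no human MAPT is among the genes counted, so the libraries were not checked against the vector.

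The AAV-TAU library held 109428807 UMIs in 19596 barcodes and the AAV-STOP library 130252240 UMIs in 20265 barcodes, with 116 barcode sequences in both. After doublets were left out, 17917 AAV-TAU and 18030 AAV-STOP nuclei stayed. Clusters were named by marker genes, none of them among the 9, and each class carries the ending -like since no other annotation was at hand. The microglia-like class had all 10 of its markers detected in both libraries, and it held 521 AAV-TAU nuclei (2.91% of the library, 2.67 to 3.16) and 175 AAV-STOP nuclei (0.971%, 0.833 to 1.12). Levels are in CPM, the UMIs of a gene scaled to the total of its class. Of the kept nuclei, 3513 in AAV-TAU and 3466 in AAV-STOP were in clusters without a class.

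Complement is a cascade of blood and tissue proteins that tags cells and debris. C1q, built from the products of C1qa, C1qb and C1qc, starts the classical pathway, in which C4 and then C3 are cleaved and deposited on a surface. Microglia recognise deposited C3 through the receptor CR3, of which Itgam (CD11b) is a subunit, and in parts of the developing brain this route is known for the removal of synapses. Csmd1 is a large membrane protein with CUB and sushi domains that inhibits complement, and Csmd2 and Csmd3 share this domain make-up.

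The C1q chains were at their highest in microglia-like and border macrophage-like nuclei. Per nucleus, they were close to a common low level in most other classes. C1qa (ENSMUSG00000036887) stood at 385 CPM (348 to 424) in AAV-TAU microglia-like nuclei and at 348 CPM (295 to 409) in AAV-STOP ones. C1qb (ENSMUSG00000036905) stood at 322 CPM (288 to 358) in AAV-TAU and 275 CPM (227 to 329) in AAV-STOP. C1qc (ENSMUSG00000036896) stood at 411 CPM (373 to 452) in AAV-TAU and 378 CPM (323 to 441) in AAV-STOP. Each chain was thus slightly higher in AAV-TAU, by ratios of 1.10 (0.913 to 1.34), 1.17 (0.948 to 1.46) and 1.09 (0.906 to 1.31) for C1qa, C1qb and C1qc, and all of these intervals hold 1. A difference is marked here where the log2 ratio of CPM + 5 is 0.32 or more in either direction. None of the chains was past this limit in microglia-like nuclei, while 17.0% of all genes with 100 or more UMIs in this class were past it upwards. The 172 such genes under 5 kb had a median log2 difference of 0.34. C1qa (2.89 kb) and C1qc (3.26 kb) are of this length and stood at 0.14 and 0.12. Per nucleus the chains together went the other way, at 2.25 UMIs in AAV-TAU and 2.48 in AAV-STOP, with overlapping intervals. In border macrophage-like nuclei, 84 in AAV-TAU and 41 in AAV-STOP, C1qa stood at 345 and 367 CPM, C1qb at 224 and 281 CPM, and C1qc at 313 and 338 CPM (AAV-TAU and AAV-STOP in each pair). The AAV-STOP part of that class held under 50 nuclei, so no ratio was read from it. In AAV-STOP the intervals of every chain overlap between the 2 myeloid classes, and in AAV-TAU those of C1qa and C1qc do.

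The genes of the 3 chains lie side by side on the minus strand of chromosome 4 within 18.7 kb (GENCODE vM21, GRCm38), with C1qb at 136880129 to 136886187, C1qc at 136889804 to 136893065 and C1qa at 136895917 to 136898803. Itgam (ENSMUSG00000030786), whose pattern is described further on, lies on chromosome 7 at 128062640 to 128118491. For members that share the microglial pattern, the 250 bases before RefSeq's start of transcription are shown to give the sequence beside the levels. Of the 9 members, 4 matched the table of RefSeq promoters (GRCm38.p6), namely C1qb, C1qc, C3 and Itgam. Capitals mark GAGGAA on the gene's strand or TTCCTC, the same letters read on the other strand. This is a core of the sites of PU.1 (gene Spi1), a transcription factor of myeloid cells, and of related ETS factors. The windows are chr4:136886201-136886450 (minus strand) for C1qb, chr4:136892915-136893164 (minus strand) for C1qc and chr7:128062390-128062639 (plus strand) for Itgam.
C1qb: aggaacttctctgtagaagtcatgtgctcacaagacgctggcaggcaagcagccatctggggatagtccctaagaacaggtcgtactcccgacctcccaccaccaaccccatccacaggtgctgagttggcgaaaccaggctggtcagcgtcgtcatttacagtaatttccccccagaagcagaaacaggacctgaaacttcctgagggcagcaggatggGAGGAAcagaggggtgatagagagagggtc
C1qc: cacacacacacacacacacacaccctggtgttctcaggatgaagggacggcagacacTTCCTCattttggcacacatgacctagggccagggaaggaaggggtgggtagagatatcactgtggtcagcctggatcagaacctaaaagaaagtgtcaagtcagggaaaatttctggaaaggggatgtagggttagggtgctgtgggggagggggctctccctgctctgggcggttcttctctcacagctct
Itgam: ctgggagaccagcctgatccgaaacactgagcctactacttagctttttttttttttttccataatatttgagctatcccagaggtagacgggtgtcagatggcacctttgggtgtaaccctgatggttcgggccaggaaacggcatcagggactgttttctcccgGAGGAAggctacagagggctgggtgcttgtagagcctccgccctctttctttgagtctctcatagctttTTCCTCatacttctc
C1qb and C1qc had 1 match each and Itgam had 2, at 84 and 15 bases before the start. The C1qb match begins 30 bases before the start and the C1qc match 193, counted from RefSeq's start. For C1qc the outer start of the GENCODE gene lies farther upstream, inside the window shown. In the same window C3 had 0 matches. Of all 32851 promoters of this length, 23.3% held at least 1 match and 3.54% held 2 or more, so a single match is a common feature, and a match is a description and not a site of binding.

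Outside the myeloid classes, C1q UMIs were spread almost evenly over the nuclei of most classes. The 3 chains together gave 0.227 UMIs per nucleus over the 18 other classes with 100 or more AAV-TAU nuclei and 0.223 over the 17 such classes of AAV-STOP. Single classes lay between 0.161 (Cajal-Retzius-like) and 0.283 (Vip inhibitory neuron-like) in AAV-TAU and between 0.178 (newly formed oligodendrocyte-like) and 0.261 (Lamp5 inhibitory neuron-like) in AAV-STOP. Microglia-like nuclei held 2.25 (2.13 to 2.39) in AAV-TAU and 2.48 (2.25 to 2.72) in AAV-STOP, below border macrophage-like nuclei at 2.95 (2.60 to 3.34) in AAV-TAU and 3.34 (2.81 to 3.95) in AAV-STOP. Granule neuron-like nuclei, the largest class, had 0.224 (0.210 to 0.238) in AAV-TAU and 0.223 (0.210 to 0.236) in AAV-STOP. Mature oligodendrocyte-like nuclei had 0.226 in AAV-TAU and 0.216 in AAV-STOP, although their median UMI count was 2392 in AAV-TAU and 2589 in AAV-STOP, against 5134 and 5355 for granule neuron-like nuclei. The same number of C1q UMIs per nucleus therefore gave different CPM: from 23.8 in CA3 neuron-like nuclei, at a median of 9461 UMIs, to 93.3 in immature neuron-like nuclei, at a median of 2639, both in AAV-TAU. Endothelial-like nuclei, 90 in AAV-TAU and 47 in AAV-STOP, stood between the groups at 0.533 (0.393 to 0.707) and 0.574 (0.379 to 0.836). In AAV-STOP, 78 cycling nuclei had 0.372 (0.249 to 0.534) and 32 choroid plexus or ciliated-like nuclei 0.469 (0.262 to 0.773). In AAV-TAU the same classes stood at 0.245 and 0.208. C1q counts in neuron-like, astrocyte-like and oligodendrocyte-like nuclei are called background here. Whether they are expression or RNA of other cells was not tested.

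**Figure D1:**
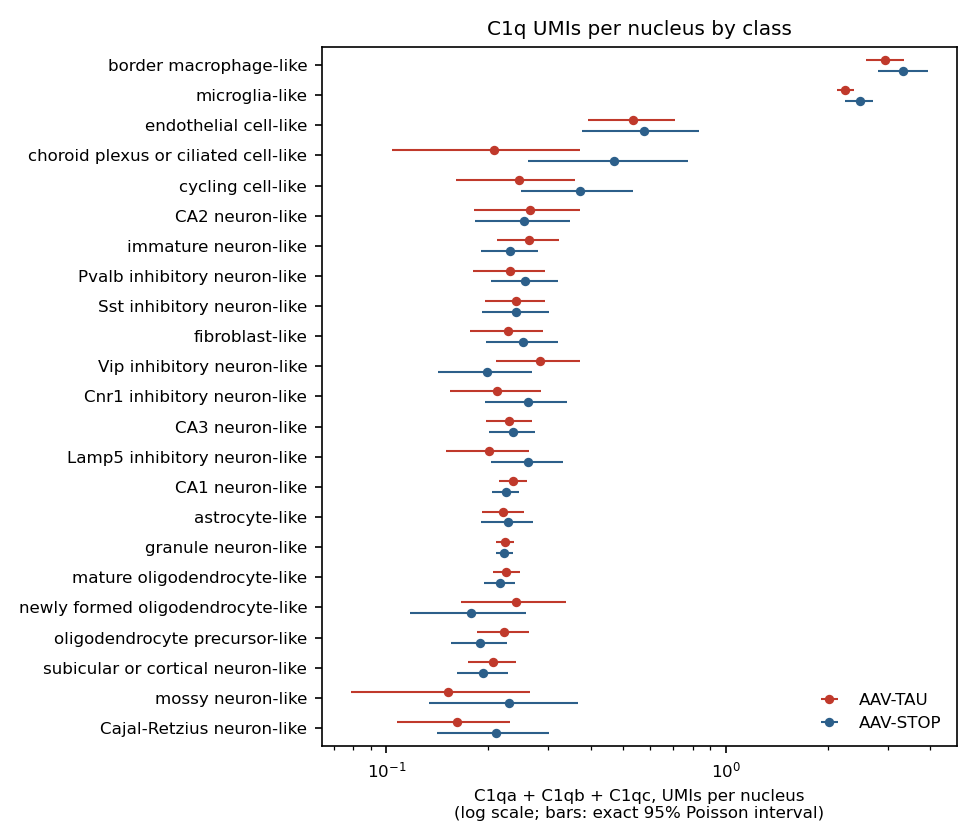
C1q UMIs (sum of C1qa, C1qb and C1qc) per nucleus on a log axis, one row per class, with AAV-TAU above AAV-STOP; points are summed UMIs over nuclei and bars exact 95% Poisson intervals. Microglia-like nuclei sit at 2.25 in AAV-TAU and 2.48 in AAV-STOP, while granule neuron-like nuclei sit at 0.224 and 0.223, the level around which most other classes lie.

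The make-up of this background was set beside that of the microglia-like class. C1qa, C1qb and C1qc gave 34.4%, 28.8% and 36.8% of the C1q UMIs of AAV-TAU microglia-like nuclei and 34.8%, 27.4% and 37.8% of the AAV-STOP ones. In granule neuron-like nuclei they gave 39.5%, 27.2% and 33.3% in AAV-TAU and 35.7%, 23.9% and 40.4% in AAV-STOP. The C1qc part there differed between libraries beyond its counting interval, 30.3% to 36.4% in AAV-TAU and 37.6% to 43.3% in AAV-STOP. Some classes lay further from the microglial make-up in AAV-TAU. C1qa gave 53.3% (42.6% to 63.7%) and C1qb 14.1% (7.74% to 23.0%) in immature neuron-like nuclei. C1qb gave 10.4% (4.30% to 20.3%) in Pvalb inhibitory neuron-like nuclei. In AAV-STOP these parts were 41.5% (32.0% to 51.5%), 22.6% (15.1% to 31.8%) and 19.2% (11.2% to 29.7%), in the same order. Other classes lay nearer in AAV-TAU, as mature oligodendrocyte-like nuclei at 38.8%, 25.2% and 36.0% for C1qa, C1qb and C1qc. The intervals of AAV-TAU microglia-like nuclei were 31.7% to 37.2% for C1qa and 26.2% to 31.5% for C1qb. C1q UMIs per UMI of the 10 microglial markers were 0.135 in AAV-TAU and 0.121 in AAV-STOP microglia-like nuclei, and ranged from 0.306 to 0.617 in AAV-TAU and from 0.231 to 0.471 in AAV-STOP over the classes with 100 or more nuclei that are not myeloid. C1q was thus more frequent relative to these markers outside the microglia-like class than inside it. Border macrophage-like nuclei stood at 0.383 in AAV-TAU and 0.387 in AAV-STOP, within the ranges of the classes that are not myeloid.

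A share of nuclei with a UMI gives the same picture. Thinned to 1500 UMIs each, 41.7% of AAV-TAU microglia-like nuclei (37.4% to 46.0%) and 41.7% of AAV-STOP ones (34.3% to 49.4%) held a C1qa UMI, against 2.82% and 2.13% of granule neuron-like nuclei in AAV-TAU and AAV-STOP. Unthinned, the microglial shares were 50.3% in AAV-TAU and 54.3% in AAV-STOP, at medians of 1930 and 2246 UMIs. C1qc reached 43.8% of AAV-TAU and 41.1% of AAV-STOP thinned microglia-like nuclei, and C1qb 32.4% and 33.7%.

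Over whole libraries C1q was higher in AAV-TAU. The 3 chains summed to 59.9 CPM in AAV-TAU and 46.7 CPM in AAV-STOP, a ratio of 1.28 (1.24 to 1.33). The microglia-like class held 20.6% of these UMIs in AAV-TAU and 8.47% in AAV-STOP. On the log2 scale of CPM + 5 the difference was 0.33, and it was 0.093 once the class shares of AAV-STOP were applied to both libraries. Of the single chains C1qa, at 23.5 CPM in AAV-TAU and 17.6 CPM in AAV-STOP, was past the limit at 0.339. So were 3.88% of genes upwards and 0.11% downwards. C1qb, at 15.5 and 11.4 CPM, lay just short of the limit at 0.3208, with a ratio of 1.36 (1.26 to 1.47). C1qc, at 20.9 and 17.7 CPM, was at 0.188. The larger share of microglia-like nuclei in AAV-TAU stood beside a lower minimum of UMIs per barcode (1633, against 1973 in AAV-STOP), whose part in the share was not tested.

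By class, C1qa was past the limit upwards in subicular or cortical neuron-like nuclei, where 10.2% of genes were. It stood there at 14.0 CPM from 67 UMIs in AAV-TAU and at 8.44 CPM from 42 UMIs in AAV-STOP, a ratio of 1.66 (1.11 to 2.51). The chains summed there to 0.206 UMIs per nucleus in AAV-TAU and 0.193 in AAV-STOP, within the background. In granule neuron-like nuclei C1qa was at 16.5 CPM in AAV-TAU and 14.1 CPM in AAV-STOP, a ratio of 1.17 (1.02 to 1.35). C1qc was at 13.9 and 16.0 CPM there, a ratio of 0.870 (0.753 to 1.004) whose interval holds 1. Both were short of the limit.

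Itgam was more restricted to microglia-like nuclei than C1q. It stood at 353 CPM (318 to 391) from 371 UMIs in AAV-TAU and at 359.9 CPM (306 to 421) from 156 UMIs in AAV-STOP, a ratio of 0.981 (0.812 to 1.19). Border macrophage-like nuclei had 85.3 CPM (54.6 to 127) and 93.6 CPM (49.8 to 160.1), from 24 UMIs in AAV-TAU and 13 in AAV-STOP. Granule neuron-like nuclei had 2.13 and 1.57 CPM, astrocyte-like nuclei 3.48 and 2.46 CPM, and mature oligodendrocyte-like nuclei 2.04 and 2.93 CPM (AAV-TAU and AAV-STOP in each pair). Thinned to 1500 UMIs, 38.2% of AAV-TAU and 41.1% of AAV-STOP microglia-like nuclei held an Itgam UMI, against 0.326% and 0.282% of granule neuron-like nuclei. Fibroblast-like nuclei held 2 UMIs in AAV-TAU and 15 in AAV-STOP, or 2.42 and 18.3 CPM. In the whole libraries Itgam stood at 6.78 CPM in AAV-TAU and 4.53 CPM in AAV-STOP, a log2 difference of 0.31 that was -0.051 with the class shares of AAV-STOP. The microglia-like class held 57.4% of Itgam UMIs in AAV-TAU and 31.4% in AAV-STOP.

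Part of the remaining Itgam and C1q UMIs were in clusters led by microglial genes together with neuronal RNA, which were kept out of the class. A cluster of 77 AAV-TAU and 135 AAV-STOP nuclei, led by Inpp5d, Dock8 and Dock2, had 268 CPM of C1q in AAV-TAU and 289.5 CPM in AAV-STOP. It had 65.1 and 71.3 CPM of Itgam, and 3431 and 3371 CPM of Csmd1. A second cluster of 88 AAV-TAU and 123 AAV-STOP nuclei had 219.5 and 220.3 CPM of C1q and 56.8 and 43.6 CPM of Itgam. Both held more AAV-STOP than AAV-TAU nuclei, the reverse of the microglia-like class, and Rbfox3, a neuronal gene, stood in them at 141% and 87.9% of the median of neuronal clusters.

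C3 (ENSMUSG00000024164, chromosome 17, 57203970 to 57228136), the central component of the cascade, was near the limit of detection. The whole AAV-TAU library held 9 UMIs and the AAV-STOP library 4, or 0.0944 CPM (0.0432 to 0.179) and 0.0365 CPM (0.00993 to 0.0933). Astrocyte-like nuclei held 2 UMIs in AAV-TAU and 1 in AAV-STOP, and microglia-like nuclei 1 and 0. No difference in C3 was detectable at this depth.

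C4b (ENSMUSG00000073418, chromosome 17, 34728380 to 34743882), which encodes complement C4, was found in astrocyte-like, fibroblast-like and border macrophage-like nuclei, and in AAV-TAU also in mature oligodendrocyte-like nuclei. In mature oligodendrocyte-like nuclei it had 35 UMIs in AAV-TAU and 5 in AAV-STOP, or 6.48 CPM (4.52 to 9.02) and 1.05 CPM (0.34 to 2.44), a ratio of 6.20 (2.42 to 20.3). The UMIs came from 32 of 2055 AAV-TAU nuclei (1.56%, 1.07% to 2.19%) and from 5 of 1669 AAV-STOP nuclei (0.30%, 0.0973% to 0.698%). Thinned to 1500 UMIs the shares were 1.22% and 0.180%. For comparison, 8 of 4294 granule neuron-like nuclei in AAV-TAU (0.186%) and 8 of 5316 in AAV-STOP (0.15%) held a C4b UMI, so that the AAV-STOP oligodendrocyte level is not above that background beyond its interval. The 4 clusters of the class are parts of the same 2 libraries and not replicates. They held 20 UMIs in AAV-TAU and 1 in AAV-STOP, 7 and 3, 7 and 1, and 1 and 0. The first of them had 1005 AAV-TAU and 534 AAV-STOP nuclei, at 9.01 and 0.782 CPM. With 40 UMIs in all, C4b fell below the 100 UMIs asked of a gene for the count of differences. Among the 3724 genes with 20 to 99 UMIs in this class, 1 gene (C4b itself, 0.0269%) had a ratio of CPM + 5 at or above that of C4b, a comparison chosen after its values were seen. Past the limit upwards were 13.9% of the genes with 100 or more UMIs.

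Newly formed oligodendrocyte-like nuclei held 0 C4b UMIs in AAV-TAU and 1 in AAV-STOP, and oligodendrocyte precursor-like nuclei held 2 in each. The summed level of the 9 astrocyte markers in mature oligodendrocyte-like nuclei was 309 CPM in AAV-TAU and 287 CPM in AAV-STOP. That of the 8 border macrophage markers was 6.48 and 6.69 CPM, and the fibroblast markers were not summed in this class. The median mitochondrial share of mature oligodendrocyte-like nuclei was 0.432% in AAV-TAU and 0.293% in AAV-STOP, against 0.281% and 0.174% over all nuclei, and the median log2 difference of the 723 shortest genes in the class, those below 5 kb, was 0.30. The part of these values in the C4b result was not tested. In astrocyte-like nuclei C4b had 83 UMIs in AAV-TAU and 44 in AAV-STOP, 36.1 CPM (28.7 to 44.7) and 27.0 CPM (19.6 to 36.3). The ratio of 1.34 was past the limit, as were 14.8% of genes upwards in this class, but its interval (0.916 to 1.97) holds 1. Fibroblast-like nuclei had 27.9 CPM in AAV-TAU and 30.4 CPM in AAV-STOP, and border macrophage-like nuclei had 35.5 and 57.6 CPM from 10 and 8 UMIs. Microglia-like nuclei held 2 UMIs in AAV-TAU and 0 in AAV-STOP. C4b has a near-identical neighbour, C4a, and how reads common to both were counted is not stated, so its level is uncertain to that extent. C4a had 0 UMIs in astrocyte-like nuclei of either library, which does not cover mature oligodendrocyte-like nuclei. It was counted elsewhere, as in endothelial-like nuclei at 3.94 CPM in AAV-TAU and 3.45 CPM in AAV-STOP.

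**Figure D2:**
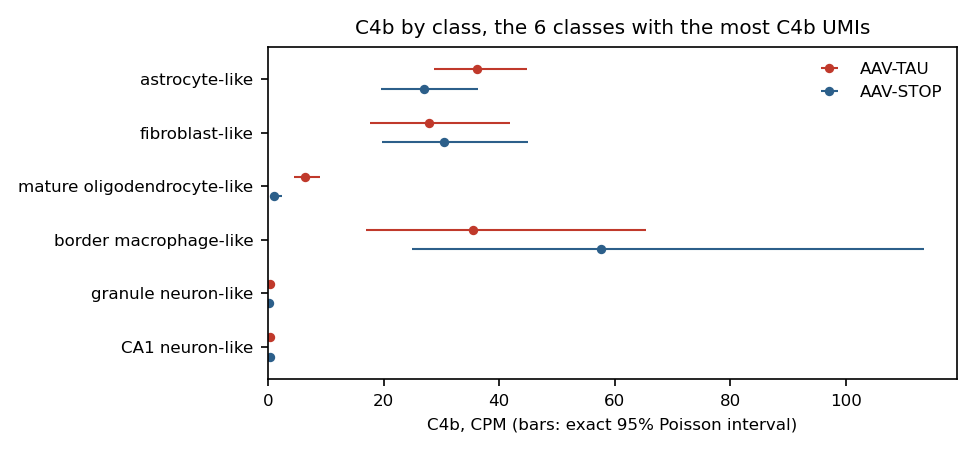
C4b in CPM for the 6 classes with the most C4b UMIs, with AAV-TAU above AAV-STOP and exact 95% Poisson intervals as bars. Mature oligodendrocyte-like nuclei sit at 6.48 CPM in AAV-TAU and 1.05 CPM in AAV-STOP with intervals that do not overlap, while the intervals of astrocyte-like nuclei, at 36.1 and 27.0 CPM, do.

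The Csmd genes were found in nearly all classes, and each had its own pattern. They are very long: Csmd1 (ENSMUSG00000060924) spans 1643 kb on chromosome 8 (15892537 to 17535586), Csmd3 (ENSMUSG00000022311) 1211 kb on chromosome 15 (47580637 to 48792063) and Csmd2 (ENSMUSG00000028804) 579.8 kb on chromosome 4 (127987857 to 128567656). In nuclear RNA most UMIs of such genes can stem from introns, so levels are compared between these 3 genes only per length. Per 100 kb of gene, granule neuron-like nuclei had 228 CPM of Csmd1, 70.8 CPM of Csmd2 and 100.5 CPM of Csmd3 in AAV-TAU, and 249.9, 74.1 and 109 CPM in AAV-STOP. The antisense genes Gm16346 and Gm16347 lie within Csmd1, and Csmd2os, Hmgb4 and Hmgb4os within Csmd2. Whether strand was used in counting is not given in the sources used here.

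Csmd1 was high in nearly all excitatory neuron-like classes and in oligodendrocyte precursor-like nuclei. CA2 neuron-like nuclei had 4802 CPM in AAV-TAU and 4931 CPM in AAV-STOP, subicular or cortical neuron-like nuclei 4771 and 5062 CPM, and CA3 neuron-like nuclei 4307 and 4522 CPM. CA1 neuron-like nuclei had 3831 CPM in AAV-TAU and 4072 CPM in AAV-STOP, and granule neuron-like nuclei 3745 and 4105 CPM. CA2 and subicular or cortical neuron-like nuclei, the highest in AAV-TAU, did not differ there beyond their intervals. Among inhibitory neuron-like classes the level went from 4551 CPM in AAV-TAU and 4776 CPM in AAV-STOP for the Vip class down to 1562 and 1467 CPM for the Lamp5 class. Immature neuron-like nuclei had 1078 CPM in AAV-TAU and 1199 CPM in AAV-STOP, below the granule neuron-like class. A cluster without a class, led by Unc13c, Il1rapl2 and Vwc2l and made of 226 AAV-TAU and 158 AAV-STOP nuclei, held more Csmd1 than any named class, 8274 and 9615 CPM. It was singled out after its values were seen.

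Across the oligodendrocyte lineage the 3 Csmd genes parted. Csmd1 stood at 4560 CPM in AAV-TAU and 4765 CPM in AAV-STOP in precursor-like nuclei, at 2550 and 2154 CPM in newly formed, and at 134 and 138 CPM in mature oligodendrocyte-like nuclei, its lowest level of all named classes. Csmd2 was as high in newly formed (741 CPM in AAV-TAU and 717 CPM in AAV-STOP) as in precursor-like nuclei (686 and 756 CPM), with overlapping intervals, and was at 220.4 and 212 CPM in mature ones. Csmd3 had its highest level of all classes in precursor-like nuclei, 2263 CPM in AAV-TAU and 2523 CPM in AAV-STOP. It was at 707 and 760.3 CPM in newly formed and at 650.3 and 795 CPM in mature oligodendrocyte-like nuclei, so that mature nuclei kept a level of Csmd3 close to that of newly formed ones while their Csmd1 was far lower. Csmd1 in mature oligodendrocyte-like nuclei amounted to 0.353 UMIs per nucleus in AAV-TAU and 0.394 in AAV-STOP, and 16.1% of thinned nuclei in each library held one. Whether these counts are expression or RNA of other cells was not tested.

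Csmd2 was higher in excitatory than in inhibitory neuron-like classes, immature neuron-like nuclei set apart. The excitatory classes ranged from 294 CPM (CA2) to 555 CPM (subicular or cortical) in AAV-TAU and from 309 to 573.5 CPM in AAV-STOP in the same classes. The inhibitory classes ranged from 93.5 CPM (Cnr1) to 189 CPM (Lamp5) in AAV-TAU and from 98.4 to 206 CPM in AAV-STOP. Immature neuron-like nuclei, at 143 CPM in AAV-TAU and 144 CPM in AAV-STOP, lay within the inhibitory range. Cajal-Retzius-like nuclei held 435.5 CPM of Csmd2 in AAV-TAU and 466 CPM in AAV-STOP. Csmd3 also varied among inhibitory classes, from 1634 CPM in AAV-TAU and 2024 CPM in AAV-STOP for the Vip class to 271 and 276 CPM for the Sst class.

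**Figure D3:**
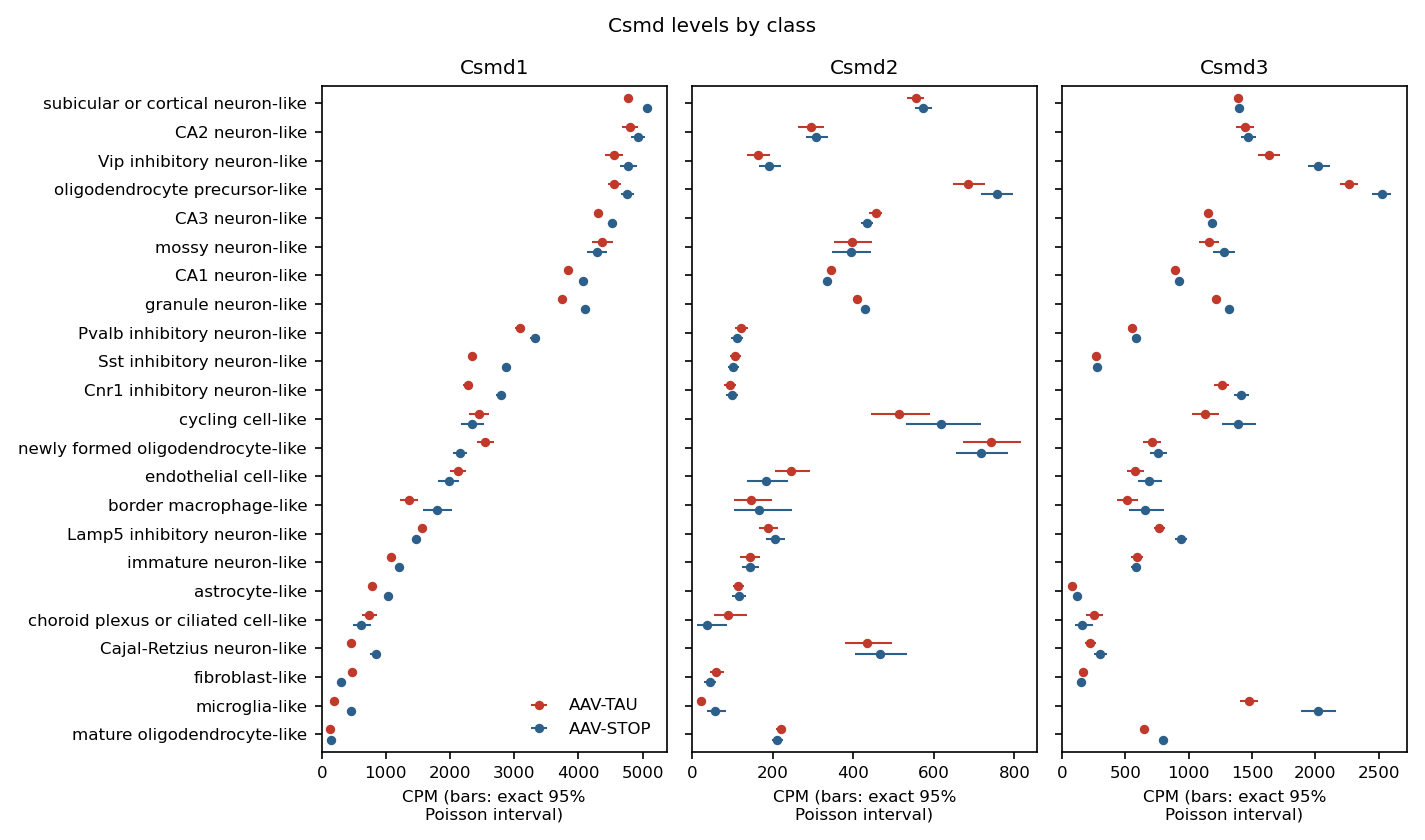
Csmd1, Csmd2 and Csmd3 in CPM (linear axes that differ between panels), one row per class in the order of Csmd1, with AAV-TAU above AAV-STOP and exact 95% Poisson intervals as bars. In AAV-TAU, Csmd1 runs from 4802 CPM in CA2 neuron-like nuclei down to 134 CPM in mature oligodendrocyte-like nuclei, whereas microglia-like nuclei, among the lowest classes for Csmd1 and Csmd2, sit at 1475 CPM of Csmd3 in AAV-TAU and 2021 CPM in AAV-STOP.

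In microglia-like nuclei Csmd3 was the highest of the 3 genes per length. It had 1549 UMIs in AAV-TAU and 876 in AAV-STOP, or 1475 CPM (1402 to 1550) and 2021 CPM (1890 to 2160). Csmd1 had 197 CPM in AAV-TAU and 449.9 CPM in AAV-STOP, and Csmd2 23.8 and 57.7 CPM. After thinning, 68.7% of AAV-TAU and 82.3% of AAV-STOP microglia-like nuclei held a Csmd3 UMI. Per 100 kb this is 122 CPM of Csmd3, 11.99 CPM of Csmd1 and 4.10 CPM of Csmd2 in AAV-TAU, and 167, 27.4 and 9.95 CPM in AAV-STOP. In astrocyte-like nuclei the order per 100 kb was the other one, with 47.98 CPM of Csmd1, 19.9 CPM of Csmd2 and 6.21 CPM of Csmd3 in AAV-TAU, and 62.9, 20.02 and 9.63 CPM in AAV-STOP.

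Between libraries, 77 pairs of a gene of the set and a class had 100 or more UMIs and at least 50 nuclei in each library. Of these, 3 were past the limit upwards in AAV-TAU and 6 downwards. The upward ones were C1qa in subicular or cortical neuron-like, C4b in astrocyte-like and Csmd1 in fibroblast-like nuclei. The downward ones were Csmd1 and Csmd3 in microglia-like, astrocyte-like and Cajal-Retzius-like nuclei. In the same classes 12.7% (microglia-like), 7.53% (astrocyte-like) and 15.8% (Cajal-Retzius-like) of all genes with 100 or more UMIs were past the limit downwards. Upwards, 10.2% (subicular or cortical), 14.8% (astrocyte-like) and 16.6% (fibroblast-like) were. In the other classes 0 members were past the limit. The background there was 5.02% upwards and 0.214% downwards in CA1, 6.36% and 5.79% in CA2, 7.2% and 0.879% in CA3, and 8.47% and 6.82% in mossy neuron-like nuclei. Among inhibitory neuron-like classes it was 8.96% upwards and 3.28% downwards for Sst, 9.07% and 3.37% for Pvalb, 11.4% and 8.12% for Vip, 11.9% and 4.7% for Lamp5, and 11.5% and 5.77% for Cnr1. In immature neuron-like nuclei it was 12.6% upwards and 6.7% downwards, and in cycling nuclei 14.1% and 18.9%. In the oligodendrocyte lineage it was 13.7% upwards and 5.12% downwards for precursor-like, 12.6% and 11.0% for newly formed, and 13.9% and 2.66% for mature nuclei. In granule neuron-like nuclei, where 4.07% of genes were past it upwards and 0.0845% downwards, 0 of 6 members were.

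Csmd3 in microglia-like nuclei had a ratio of 0.73 (0.671 to 0.793), and Csmd1 one of 0.438 (0.358 to 0.535). Of the Csmd1 UMIs, 180 of 207 in AAV-TAU and 94 of 195 in AAV-STOP were in nuclei without an Rbfox3 UMI. Without the nuclei that held an Rbfox3 UMI, 13.1% in AAV-TAU and 12.6% in AAV-STOP, Csmd1 stood at 198 CPM in AAV-TAU and 252 CPM in AAV-STOP, and its log2 difference on CPM + 5 was -0.34 in place of -1.17. Csmd3 stood at 1483 CPM in AAV-TAU and 2142 CPM in AAV-STOP among the same nuclei. Long genes as a whole were lower in AAV-TAU in this class: among 128 genes of 500 kb or more the median log2 difference was -0.51 and 64.8% were past the limit downwards. Csmd3, at -0.45, lay close to that median. For genes under 5 kb the median was 0.34.

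In astrocyte-like nuclei Csmd1 had 1813 UMIs in AAV-TAU and 1683 in AAV-STOP, a ratio of 0.763 (0.713 to 0.815), and Csmd3 had 173 and 190, a ratio of 0.645 (0.521 to 0.796). Csmd1 was lower in AAV-TAU in both clusters of the class, at 551 CPM against 688 CPM in AAV-STOP in the larger and at 1879 CPM against 2502 CPM in the smaller. Rbfox3 stood at 67.4 CPM in AAV-TAU and 51.6 CPM in AAV-STOP in this class. The 7 CA1 neuron markers summed to 240 CPM in AAV-TAU and 267 CPM in AAV-STOP, and the 8 granule neuron markers to 1430 and 1370 CPM. The part of these values in the Csmd results was not tested. Of 191 genes of 500 kb or more in astrocyte-like nuclei, 31.4% were past the limit downwards, at a median of -0.20. At the lower clustering resolution of 1 the log2 differences were -0.64 for Csmd1 and -0.94 for Csmd3, in place of -0.39 and -0.60.

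Cajal-Retzius-like nuclei, 180 in AAV-TAU and 138 in AAV-STOP, had 464 CPM of Csmd1 in AAV-TAU and 841 CPM in AAV-STOP, a ratio of 0.552 (0.466 to 0.652). Csmd3 had 222 CPM in AAV-TAU and 299.9 CPM in AAV-STOP, a ratio of 0.739 (0.569 to 0.960). The summed level of the 7 CA1 neuron markers in these nuclei was 540.3 CPM in AAV-TAU and 822 CPM in AAV-STOP, and Rbfox3 stood at 60.5 and 95.4 CPM. Of 159 genes of 500 kb or more in this class, 35.8% were past the limit downwards, at a median log2 difference of -0.18. The part of these values in the Csmd results was not tested. Csmd2 in the same nuclei had a ratio of 0.935 (0.769 to 1.14).

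Fibroblast-like nuclei had 468 CPM of Csmd1 in AAV-TAU and 297 CPM in AAV-STOP, a ratio of 1.57 (1.34 to 1.86), in a class where 16.6% of genes were past the limit upwards. The 2 clusters of the class went in opposite directions, with 144 CPM in AAV-TAU and 203 CPM in AAV-STOP in a cluster of 212 AAV-TAU and 151 AAV-STOP nuclei, and with 1059.7 and 405 CPM in a cluster of 77 and 121 nuclei. With marked doublets kept the log2 difference was -0.24 in place of 0.65. It was 0.27 with nuclei thinned to 1500 UMIs and 0.22 as a mean over nuclei, both short of the limit. Rbfox3 in the class stood at 90.9 CPM in AAV-TAU and 53.6 CPM in AAV-STOP, and its part in the result was not tested.

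In the large excitatory neuron-like classes Csmd1 was slightly lower in AAV-TAU, short of the limit, while Csmd2 and Csmd3 varied. Csmd1 had a ratio of 0.912 (0.904 to 0.920) in granule, 0.941 (0.930 to 0.952) in CA1, 0.952 (0.938 to 0.967) in CA3 and 0.943 (0.926 to 0.960) in subicular or cortical neuron-like nuclei. Csmd3 had 0.925 (0.911 to 0.940) in granule and 0.970 (0.947 to 0.993) in CA1 neuron-like nuclei, and 0.997 (0.964 to 1.03) in subicular or cortical neuron-like nuclei. Csmd2 had 0.956 (0.931 to 0.982) in granule and 1.03 (0.990 to 1.07) in CA1 neuron-like nuclei, and 1.05 (0.998 to 1.10) in CA3 neuron-like nuclei, both with intervals that hold 1. For the 220 genes of 500 kb or more in granule neuron-like nuclei the median log2 difference was -0.06, and for the 1347 genes under 5 kb it was 0.14. Ratios further below 1 were seen in some inhibitory classes: 0.814 (0.785 to 0.843) for Csmd1 in Sst, 0.820 (0.783 to 0.857) for Csmd1 in Cnr1, 0.807 (0.754 to 0.864) for Csmd3 in Vip and 0.821 (0.758 to 0.888) for Csmd3 in Lamp5 inhibitory neuron-like nuclei. In mature oligodendrocyte-like nuclei Csmd3 was at 0.818 (0.781 to 0.857), while Csmd1 was at 0.976 (0.877 to 1.09) and Csmd2 at 1.04 (0.954 to 1.13). Csmd1 had ratios above 1 in newly formed oligodendrocyte-like nuclei, at 1.18 (1.10 to 1.27), and in Lamp5 inhibitory neuron-like nuclei, at 1.07 (1.00 to 1.13). In whole libraries Csmd1 was at 3545 CPM in AAV-TAU and 3944 CPM in AAV-STOP, Csmd2 at 363 and 381 CPM, and Csmd3 at 1076 and 1212 CPM.

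**Figure D4:**
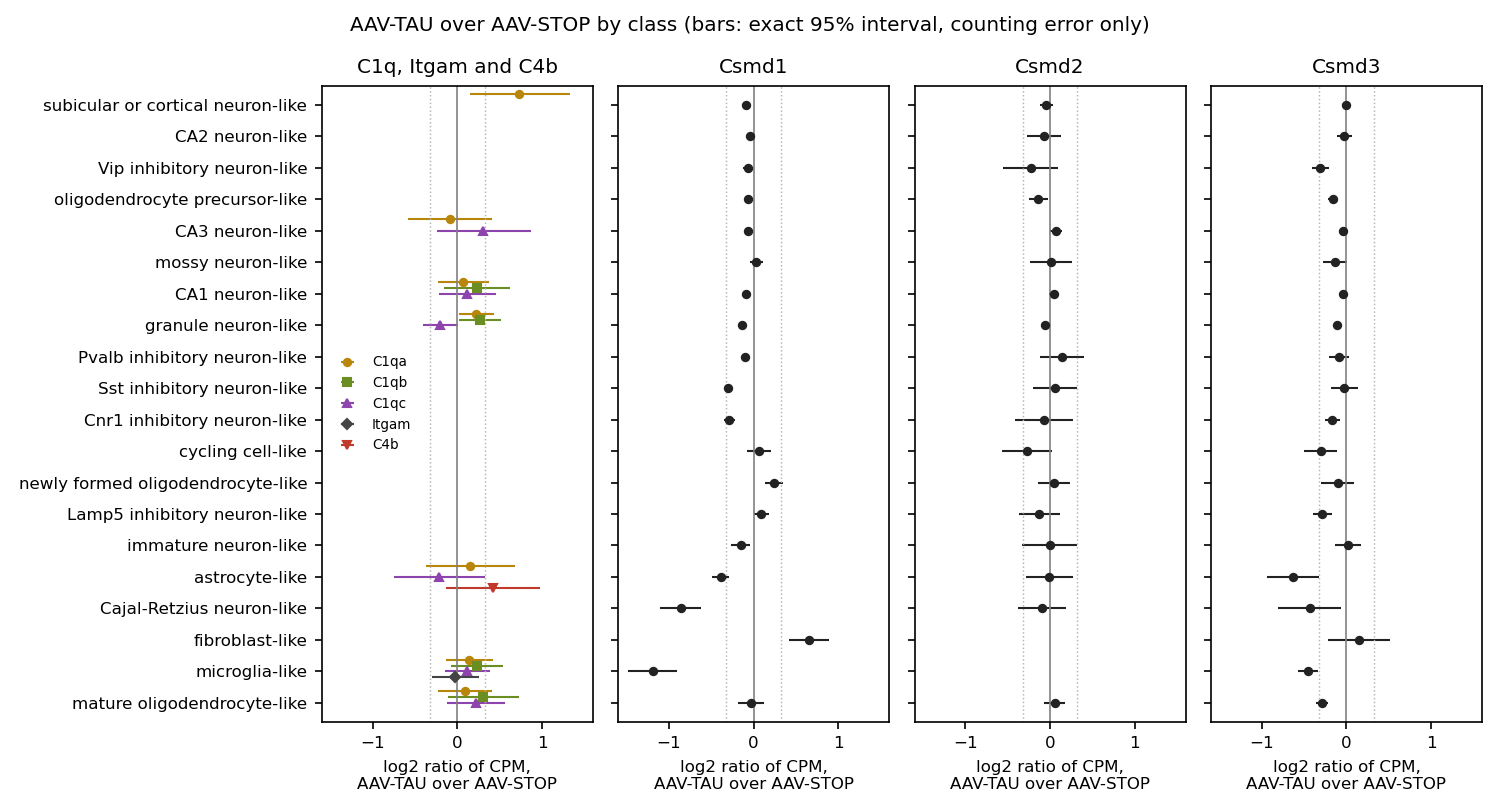
Log2 ratio of CPM, AAV-TAU over AAV-STOP, for each gene and class with 100 or more UMIs over both libraries; C3 had too few UMIs in every class. Bars are exact 95% intervals of counting error and dotted lines mark the limit in each direction. Csmd1 and Csmd3 lie to the left of the lower line in microglia-like, astrocyte-like and Cajal-Retzius-like nuclei, while the C1q chains and Itgam of microglia-like nuclei have intervals that hold 0.

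A wider list of 61 genes of the complement system and of synapse proteins related to it was counted in the same way. Of these, 37 reached 20 CPM in a class. Border macrophage-like nuclei had the highest level of C3ar1 and C5ar1, the receptors of the fragments C3a and C5a, in both libraries. C5ar1 stood there at 92.4 CPM in AAV-TAU and 64.8 CPM in AAV-STOP. C3ar1 had 49 UMIs in AAV-TAU and 7 in AAV-STOP microglia-like nuclei, 46.6 and 16.2 CPM, a ratio of 2.89 (1.30 to 7.56). It is under 100 UMIs and was named after its values were seen. Itgb2, the partner of Itgam in CR3, stood at 59.97 CPM in AAV-TAU and 62.3 CPM in AAV-STOP in microglia-like nuclei. Fibroblast-like nuclei led for Serping1, the C1 inhibitor, with 79.99 CPM in AAV-TAU and 82.8 CPM in AAV-STOP, and for Vtn, which encodes vitronectin, with 196 and 189 CPM. Choroid plexus or ciliated-like nuclei, 53 in AAV-TAU and 32 in AAV-STOP, led for the membrane regulator Cd55 at 75.3 and 75.4 CPM.

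Between libraries 264 pairs of a listed gene and a class had 100 or more UMIs, and 12 of them were past the limit upwards and 19 downwards. Over the 20 classes the share of all genes past it ranged from 4.07% to 17.0% upwards and from 0.0845% to 18.9% downwards. In granule neuron-like nuclei 0 of 25 were, in either direction, at a median log2 difference of 0.04, and in microglia-like nuclei 1 of 12 was, upwards, at a median of -0.07. That gene was Cr1l, a membrane regulator, at 106.6 CPM in AAV-TAU and 80.8 CPM in AAV-STOP, and its interval holds 1. In mature oligodendrocyte-like nuclei 1 of 19 was, downwards, where 2.66% of genes were: Masp1, a protease of the lectin pathway, at 34.8 CPM in AAV-TAU and 53.8 CPM in AAV-STOP, a ratio of 0.648 (0.534 to 0.785). Clu, the secreted chaperone and terminal pathway inhibitor clusterin, was past it upwards in oligodendrocyte precursor-like nuclei, where 13.7% of genes were, at 71.5 CPM in AAV-TAU and 49.0 CPM in AAV-STOP. In astrocyte-like nuclei, where Clu is highest, it stood at 314 CPM in AAV-TAU and 302 CPM in AAV-STOP. Of the neuronal pentraxins, Nptx1 was past it upwards in CA1 neuron-like nuclei, where 5.02% of genes were, at 47.8 CPM in AAV-TAU and 37.1 CPM in AAV-STOP. Nptxr was past it downwards in CA2 neuron-like nuclei, where 5.79% of genes were, at 34.7 CPM in AAV-TAU and 65.7 CPM in AAV-STOP. Neither gene went one way throughout: Nptx1 was past the limit downwards in Pvalb inhibitory neuron-like nuclei, and Nptxr downwards in oligodendrocyte precursor-like and upwards in Vip inhibitory and immature neuron-like nuclei. C1ql3, a C1q-like synaptic organiser, was past it downwards in subicular or cortical neuron-like nuclei, where 2.09% of genes were, at 97.3 CPM in AAV-TAU and 130.6 CPM in AAV-STOP.

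The genes whose levels went most closely with each member over the 23 classes in both libraries (46 points of log2(CPM + 5), which share libraries and depth) are given as a description. C1qa was followed by C1qb (Pearson r 0.964), C1qc (0.956), Csf1r, Laptm5 and Cx3cr1. Itgam was followed by Vav1 (0.964), Nfam1, Dennd1c, Siglech and Hcls1. C4b was followed by Selenbp1 (0.887), Plekho2, Fgd6, Axl and Cd38. Csmd1 was followed by Grid1 (0.902), Rgs7, Jazf1, Fgf14 and Dlgap1, whereas for Csmd2 (Opcml, 0.721) and Csmd3 (B3gat1, 0.673) the closest gene was farther off.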

How the data were processed

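Single nuclei of 1 AAV-TAU and 1 AAV-STOP library were analysed. The authors deposited UMI counts per gene and barcode; per the file headers they were made with Cell Ranger 8.0.1, while the submitters' processing notes name Cell Ranger 4.0 and Seurat 4.4.0. Gene coordinates are from GENCODE vM21, in which 32158 of 32285 identifiers were found.

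Barcodes with at least 500 UMIs, 300 genes and at most 5% mitochondrial UMIs were kept, which removed 2 AAV-TAU and 4 AAV-STOP barcodes. Doublets were marked per library by the scrublet scheme (1677 in AAV-TAU, 8.56%, and 2231 in AAV-STOP, 11.0%) and left out. Both libraries were clustered together with leidenalg 0.10.2 and igraph 0.11.9 (Python 3.11.15, numpy 2.4.6) at resolution 2, from 15 nearest neighbours in 30 components of 3000 variable genes, the complement genes excepted. Of the 68 clusters, 57 held 50 or more nuclei. Each was scored by the mean log2 excess of its CPM over the median cluster for every list of markers. Naming asked for a score of 1.6 (2.5 for classes that are not neuronal), a lead of 0.3, at least 3 markers raised 2-fold, leading genes that do not point to another list and, in classes neither neuronal nor cycling, Rbfox3 at no more than 70% of the median neuronal cluster. Border macrophage-like nuclei stood at 59.9%. These limits were chosen with the data in view, and the members and lists with earlier results of these data known.

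Counts were summed per class and library and scaled to CPM. Ratios are AAV-TAU over AAV-STOP, with a pseudocount of 5 CPM where log2 differences or the limit of 0.3219 (log2) are given, in classes with 50 or more nuclei in each library. With 1 library per group there is no test. Intervals are exact (Poisson, Clopper-Pearson, or conditional for a ratio) at 95%, and cover counting error only. Of the 61 listed genes, those named have the largest differences in a class at 100 or more UMIs and 20 CPM, or the highest level, and not all of them are printed. Summation and intervals were tested on simulated data.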

Additional observations from a re-analysis of the deposited data

How the results depend on the processing

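No paired analysis was possible because each group is 1 library, and no library could be left out. Of 783 alternative values of the log2 differences of members, 742 moved by less than their counting error, 40 moved further and 1 changed sign after being past the limit: Csmd1 in fibroblast-like nuclei, -0.24 with marked doublets kept. The 3 upward pairs of members became 1 with a pseudocount of 20 CPM, 1 at 1.5-fold and 20 with no filter on low counts. The 6 downward pairs became 13 with nuclei thinned to 1500 UMIs, 3 at 1.5-fold and 25 with no filter. For the wider list the 12 upward pairs became 44 thinned, 6 with the pseudocount of 20 CPM, 1 at 1.5-fold and 109 with no filter, and the 19 downward pairs became 11 with that pseudocount, 2 at 1.5-fold and 102 with no filter. The cause was not tested. With the class shares of AAV-STOP for both libraries, the whole-library log2 differences were 0.093 for C1q, -0.051 for Itgam, -0.10 for Csmd1, -0.033 for Csmd2 and -0.13 for Csmd3, in place of 0.33, 0.31, -0.15, -0.07 and -0.17. Leaving out microglia-like nuclei with an Rbfox3 UMI was chosen after seeing the data. Scaling by the median of ratios shifted all genes of a class by no more than 0.1 in either direction. Depth limits C3, and C4b outside astrocyte-like nuclei.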
